A study of Mus musculus with 3 samples.

Results

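Interferon-stimulated genes were examined in open chromatin maps of mouse leukaemic B-cell precursors with wildtype or kinase-inactive CDK6. The 41 genes were taken by symbol from a fixed list and are set beside 21951 protein-coding genes. All 41 were found in the GENCODE annotation, where Mx2 is annotated as a polymorphic pseudogene and so is not counted among the protein-coding genes. Open chromatin was measured by ATAC-seq, in which a transposase cuts and tags accessible DNA, which yielded 4 peak lists, 1 per cell line. A peak is a stretch where cuts pile up above the background of the same library, and its fold enrichment is the signal at its highest point, the summit, divided by that background. A list without a peak at a gene holds no value there, so absence says only that the signal did not pass the peak caller's threshold.

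The lines descend from bone marrow of mice on a C57BL/6 background that carried either 2 wildtype Cdk6 alleles (Cdk6+/+, WT) or 2 alleles with the kinase-inactivating K43M mutation (Cdk6KM/KM, K43M). All 4 lines were made by retroviral transfer of the BCR-ABL(p185) oncogene from a vector that also carries GFP, so both genotypes share the oncogene. There were 2 lines per genotype, called WT unnumbered, WT replicate 2, K43M replicate 1 and K43M replicate 2. WT unnumbered is the list whose group came from the series' design text and not from a sample label. According to that text the first wildtype line was an earlier submission that was analysed again, which sets it apart from the other 3. Each line is 1 culture and 1 library, and nothing in the labels reports an interferon treatment.

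Interferons are secreted antiviral cytokines. Type I interferons bind IFNAR1 and IFNAR2, whose kinases JAK1 and TYK2 activate STAT factors, which join IRF9 and bind the interferon-stimulated response element (ISRE) at target promoters. Interferon gamma acts through a STAT dimer that binds a different, palindromic gamma element. The target genes encode sensors of foreign nucleic acid, enzymes that block viral RNA and protein synthesis, GTPases, the ubiquitin-like ISG15 system and parts of the antigen processing machinery, and most are kept at a low or moderate level until interferon arrives.

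The promoter sequences show the element itself. The ISRE core was taken as GAAANNGAAA, searched on both strands from 250 bases before to 50 after each start in RefSeq's promoter table (GRCm38.p6), which held 31 of the 41 genes. Dhx58, Zbp1, Oas2, Mx1, Mx2, Gbp4, Usp18, Parp9, Parp14 and Rtp4 were the others. An exact core was present in 15 of the 31 genes (48.4%) and in 689 of all 17492 promoters in the table (3.94%). In 11 of these genes a core lay inside a region with a peak in at least 1 list. They are shown because the element and the open site can be seen together, 5′ to 3′ on the strand of the gene with the cores in capitals. A core of the opposite strand appears as its reverse complement, beginning with TTTC.
Bst2, chr8:71537567-71537622, minus strand: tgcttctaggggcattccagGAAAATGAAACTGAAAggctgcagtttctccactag
Gbp2, chr3:142620584-142620633, plus strand: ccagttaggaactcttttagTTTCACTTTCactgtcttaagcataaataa
Gbp7, chr3:142530263-142530312, plus strand: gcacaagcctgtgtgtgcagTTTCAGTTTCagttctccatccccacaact
Ifit1, chr19:34640765-34640833, plus strand: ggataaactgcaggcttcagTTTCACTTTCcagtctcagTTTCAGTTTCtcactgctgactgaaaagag
Ifit3, chr19:34583353-34583436, plus strand: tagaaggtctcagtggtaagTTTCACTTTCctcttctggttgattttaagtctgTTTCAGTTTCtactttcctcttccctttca
Rsad2, chr12:26456543-26456592, minus strand: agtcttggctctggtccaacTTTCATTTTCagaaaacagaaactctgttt
Trim30a, chr7:104465200-104465249, minus strand: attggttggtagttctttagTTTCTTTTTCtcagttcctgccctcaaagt
Ddx58, chr4:40239802-40239831, minus strand: tgaggcagTTTCGATTTCctatggccagcc
Eif2ak2, chr17:78882533-78882562, minus strand: tccgccggGAAAACGAAAcagaagagaacc
Ifih1, chr2:62646206-62646231, minus strand: agagaatcGAAACAGAAAccgatctg
Trim21, chr7:102565448-102565477, minus strand: tctgagagGAAACTGAAAGTGAAAtttgga

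In the first 7 of these genes the first core base lay upstream of the RefSeq start, at 130 bases in Bst2, 59 in Gbp2, 53 in Gbp7, 104 in Ifit1, 156 in Ifit3, 120 in Rsad2 and 36 in Trim30a. In Ddx58, Eif2ak2, Trim21 and Ifih1 it lay 2, 18, 13 and 32 bases downstream of the start, within the transcribed sequence. Ifit1 and Ifit3 each held a pair of separate cores, while the cores of Bst2 and Trim21 overlapped as direct repeats. The middle of the nearest single core lay 6.5 to 96.5 bp from the summit of the region, with a median of 25.5 bp, a range that the choice of cores inside such regions limits.

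Of the other 4 genes with a core, Isg15, Oas1a and Oas3 had no promoter peak in any list, and in Gbp3 the core lay outside the peak region, whose summit was 396 bp from the nearest start. Isg15 encodes a ubiquitin-like modifier, and Oas1a and Oas3 encode synthases of the RNase L activator. Their cores are shown for comparison, a choice made after their values were seen.
Isg15, chr4:156200855-156200916, minus strand: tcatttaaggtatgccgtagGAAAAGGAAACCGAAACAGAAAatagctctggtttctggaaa
Oas1a, chr5:120907526-120907565, minus strand: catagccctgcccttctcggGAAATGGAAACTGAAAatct
Oas3, chr5:120777705-120777754, minus strand: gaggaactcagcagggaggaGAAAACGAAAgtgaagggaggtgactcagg

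Isg15 held 3 overlapping cores and Oas1a 2, so a perfect and even repeated core was present at starts where none of the 4 lists had a peak. In the WT lists the nearest peak to the Isg15 start was 2606 and 2166 bp away. In the K43M lists it was 2650 and 2267 bp away. Each lay outside the promoter window, and its side of the start was not recorded. Values for lists are given throughout in the order WT unnumbered, WT replicate 2, K43M replicate 1, K43M replicate 2. At Oas1a the nearest peak was 70305, 76152, 70054 and 94588 bp away.

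Around the summit of each gene's strongest promoter region the ISRE core was found within 100 bp in 15 of 36 interferon-stimulated genes with such a region (41.7%), and in 190 of 12425 protein-coding genes with such a region (1.53%). These included Zbp1, Oas2, Mx2, Usp18 and Rtp4, whose starts were not in the promoter table. The ETS-IRF composite element (GGAANNGAAA), a B-cell and myeloid element bound by PU.1 or SPIB with IRF4 or IRF8, differs from the ISRE core in its first half-site and was found at 3 of the 36 summits (8.33%, against 1.71%): those of Trim25, Cmpk2 and Isg20. The gamma element (TTCNNNGAA) was found at 5 summits (13.9%, against 4.1%). All 3 motifs were searched on both strands, and no stretch can match the ISRE core and the composite at the same position and strand. These matches describe the letters in the window and not binding.

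Promoter windows spanned 2000 bp before and 200 bp after every annotated start, and 1 bp of overlap with a peak counted. Among the 41 genes, 31 (75.6%) and 33 (80.5%) had such a peak in the WT lists and 31 (75.6%) and 32 (78.0%) in the K43M lists. The share of protein-coding genes with a promoter peak was 50.7%, 50.6%, 54.0% and 52.6% in the same lists. The K43M lists thus held more open promoters than the WT lists over all genes, while the interferon-stimulated genes gave overlapping counts in both genotypes.

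The promoter was open in every list at 28 of the 41 genes (68.3%), against 47.6% of protein-coding genes. In no list was there a promoter peak at Isg15, Oas1a, Oas3, Ifi44 and Lgals3bp, which are 5 genes (12.2%, against 43.4%). Mx1 was the gene with a promoter peak in both WT lists and neither K43M list (1 gene, against 0.515% of protein-coding genes), and Dhx58 the gene with the reverse pattern (1 gene, against 2.00%). In Ddx58, Oas2, Ifit1, Ifit3, Rsad2 and Rtp4, 6 genes in all, the call differed between lists of the same genotype (14.6%, against 6.50%). With gene bodies added, 30 genes had a peak in all lists (73.2%, against 54.2%) and 4 in none (9.76%, against 34.4%). Oas3 and Ddx58 were the additions to the first group, each with an intronic peak in every list.

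**Figure D1:**
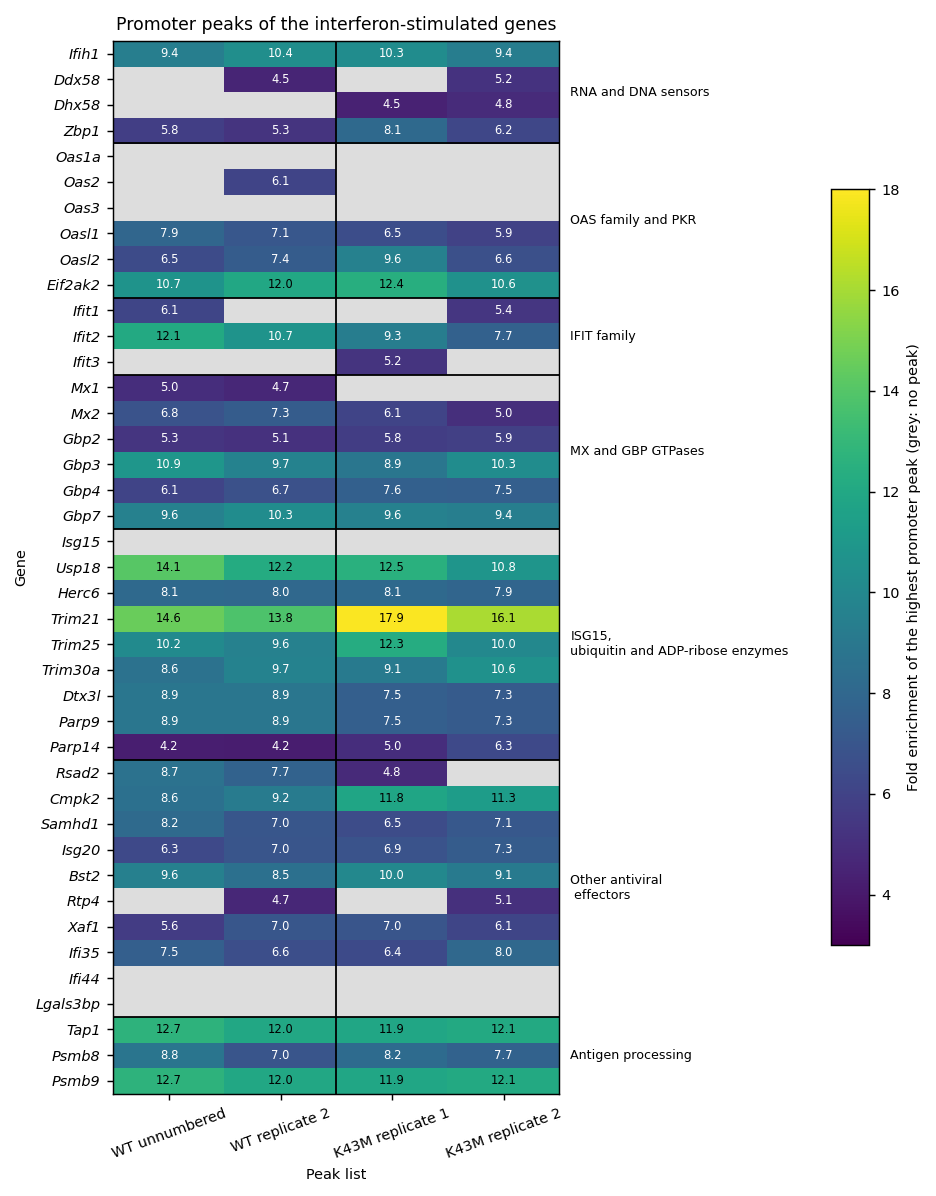
Fold enrichment of the highest promoter peak (colour and number) of each of the 41 interferon-stimulated genes (rows, grouped by role) in the 4 peak lists (columns); grey marks a list without a promoter peak. The Trim21 row is the highest in every list, between 13.8 and 17.9, and 28 rows are filled in all lists.

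The cells carried open chromatin of B-cell precursors, as their label says. Of the precursor markers, Cd79a, Pax5, Ebf1, Vpreb1, Igll1 and Blnk had a promoter peak in every list, and Cd79b, Rag1 and Rag2 had one in 3 lists. None of 4 T-cell and 5 myeloid markers had a promoter peak in any list, and Gfap was the 1 of 4 markers of other tissues with a peak (WT replicate 2). Depth, recovered from the peak values, was about 12200000, 10600000, 10300000 and 9050000 read ends, and the lists held 33038 to 39038 peaks with a median fold enrichment of 6.61 to 6.94.

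Most summits lay near a start. Peaks were taken by overlap with the promoter window and distances to the nearest annotated start, which favours short distances. Distances were not computed for all protein-coding genes. In 31 of the 36 genes with a promoter peak the median summit over lists was within 200 bp of an annotated start, and the median distance was 68.2 bp. The exceptions were Gbp3, Oasl1, Isg20 and the pair Dtx3l and Parp9. The Oasl1 peak was 740 to 1194 bp upstream, and Oasl1 had no peak within 500 bp of a start in any list. Isg20 had its strongest peak 858 to 880 bp upstream and a weaker one at the start itself. Dtx3l and Parp9, which encode partners in a ubiquitin ligase and ADP-ribosyltransferase complex, are transcribed in opposite directions and shared the same regions. The weaker of these, open in every list, had its summit 33 bp from a Parp9 start and 173 bp from the Dtx3l start.

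**Figure D2:**
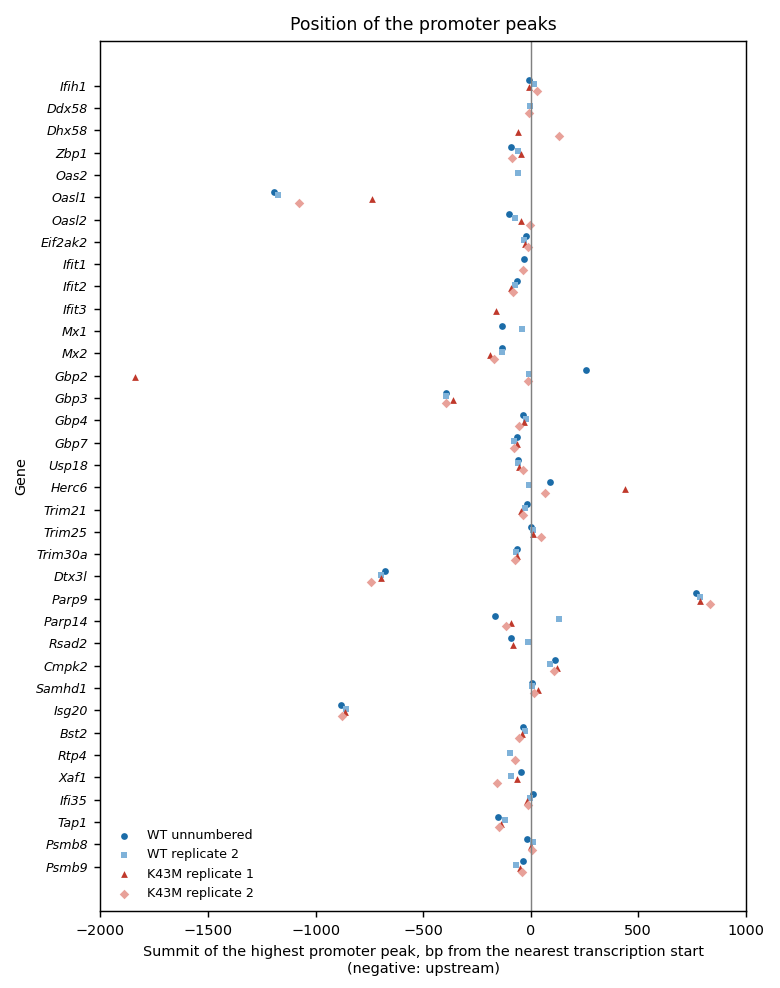
Distance in bp from the summit of the highest promoter peak to the nearest transcription start of the same gene (negative values are upstream), for the 36 genes with a promoter peak; each symbol is 1 list. In 31 genes the median lies within 200 bp of a start, and Oasl1, Isg20, Dtx3l and Parp9 lie over 500 bp away.

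Most interferon-stimulated genes lacked a CpG-rich start, the kind that is typical of housekeeping genes. With CpG-rich defined as over 50% G and C and a CpG ratio over 0.6 in the 500 bp on either side of the outermost start, 4 of the 41 starts qualified (9.76%), those of Trim25, Samhd1, Tap1 and Psmb9, against 44.4% of protein-coding genes. All 4 were open in every list, as were 77.1% of CpG-rich protein-coding genes. Of the remaining 37, 24 were open in every list (64.9%), while among protein-coding genes without a CpG-rich start this held for 2942 of 12203 (24.1%). When any annotated start was allowed to qualify, a choice made after the data were seen, the numbers were 22 of 35 genes and 18%.

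Calls differed between lists in 8 of the 37 genes without a CpG-rich start and in none of the 4 with one. Among all protein-coding genes they differed in 1138 of 12203 without such a start and in 841 of 9735 with one. Split by the ISRE core in the RefSeq window, the 15 genes with a core comprised 8 open in all lists, 3 open in none and 4 that differed (Ddx58, Ifit1, Ifit3 and Rsad2), and the 16 genes without a core comprised 14 open in all lists, 2 in none (Ifi44 and Lgals3bp) and none that differed. Dhx58, Oas2, Mx1 and Rtp4, the other genes that differed, were not in the promoter table. In the whole promoter window, the 34 genes with a core comprised 23 open in all lists, 3 in none and 8 that differed. The 7 without a core comprised 5, 2 and 0 in the same order. The promoters of all protein-coding genes were not split by the core, so no background share can be set beside these counts.

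**Figure D3:**
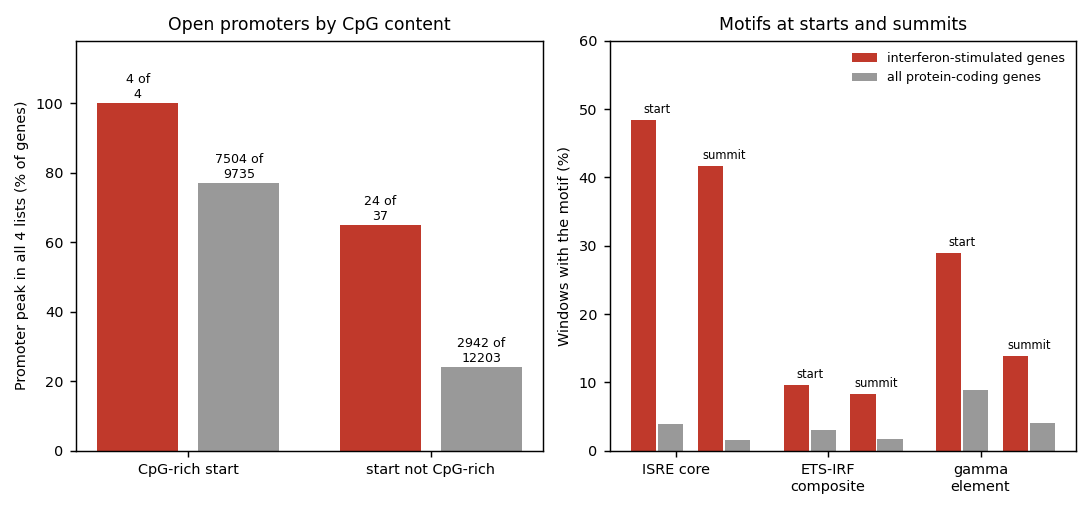
Left, percentage of genes with a promoter peak in all 4 lists by CpG content of the start, for the interferon-stimulated genes (red) and all protein-coding genes (grey), with the counts above the bars. Right, percentage of windows that hold each motif at the start (250 bp before to 50 bp after) and within 100 bp of the summit; the ISRE core is at 48.4% against 3.94% of starts and at 41.7% against 1.53% of summits.

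Fold enrichment was compared between K43M and WT with limma over all 21012 regions that had a peak in all 4 lists, out of 50965 merged regions. No region was higher (0%) or lower (0%) in K43M at an adjusted p under 0.05, in any gene. At an unadjusted p under 0.05 there were 2610 regions (12.4%). The lowest adjusted p of any region was 0.127, and other settings of the same test gave between 0 and 105 regions higher in K43M and between 0 and 40 lower.

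The interferon-stimulated genes had 64 regions in promoters or gene bodies, of which 37 had a peak in all lists and entered the test. None of the 37 passed the adjusted threshold, where the lowest adjusted p was 0.216, and 6 had an unadjusted p under 0.05 (16.2%, against 12.4% of all regions), 3 higher and 3 lower in K43M. The difference on the log2 scale, K43M minus WT, ran from -0.42 to 0.65, with a median of 0.03 beside 0.0015 for all regions, and was above 0 in 20 regions and below 0 in 17. In 14 of the 37 regions (37.8%) the values of the genotypes did not overlap, against 41.7% of all regions tested. The median standard error of the difference was 0.16.

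**Figure D4:**
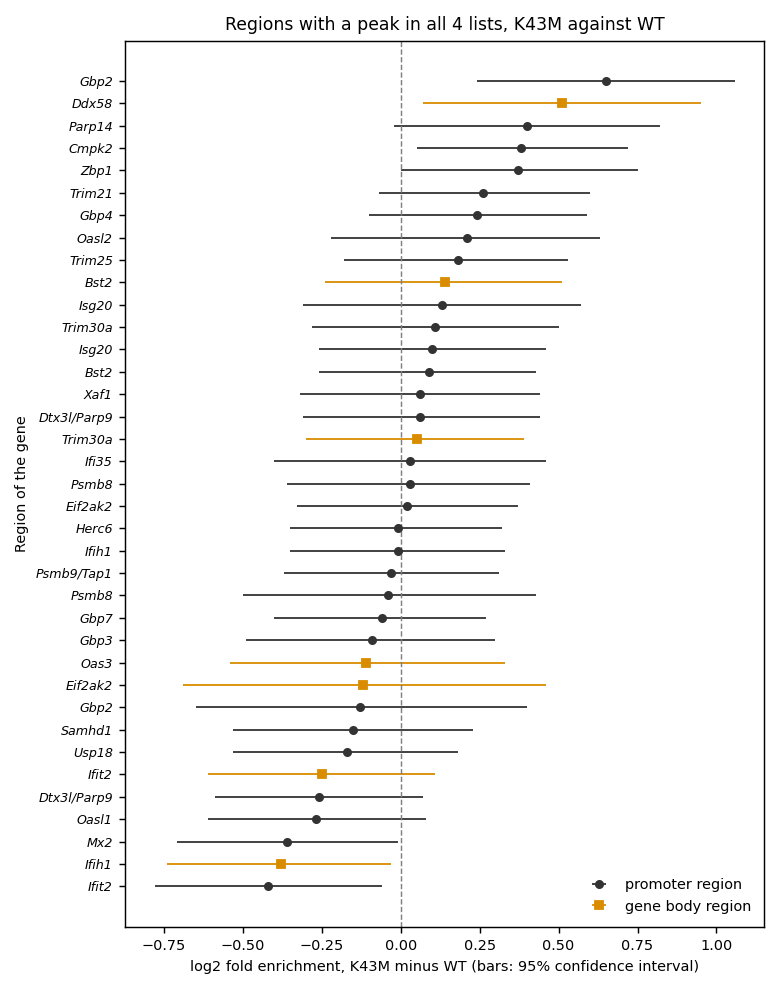
Difference in log2 fold enrichment, K43M minus WT, with its 95% confidence interval from limma, for the 37 regions of interferon-stimulated genes with a peak in all 4 lists; circles are promoter regions and squares gene body regions. The points run from -0.42 (Ifit2) to 0.65 (Gbp2), and none passed an adjusted p under 0.05.

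Among the sensors, Ifih1 encodes MDA5, Ddx58 encodes RIG-I and Dhx58 encodes LGP2, helicases that recognise viral RNA, and Zbp1 encodes a sensor of left-handed nucleic acid. The Ifih1 promoter had a fold enrichment of 9.40 and 10.4 in the WT lists and 10.3 and 9.38 in the K43M lists. The genotypes overlapped, and the log2 difference was -0.01 ± 0.15 (SE, n = 2 lines per genotype). An intronic Ifih1 region 8852 bp from the nearest start had 7.80, 7.27, 6.42 and 5.19 in the same order, with both K43M values below both WT values (log2 difference -0.38, limma adjusted p = 0.368).

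Ddx58, whose core lies just inside its start, had a promoter peak in WT replicate 2 (4.55) and K43M replicate 2 (5.19) and in neither of the other lists, so 1 line of each genotype was called. Its intronic region, 2016 bp from an internal start, was open throughout with 8.62, 6.09, 11.2 and 9.46. There both K43M values exceeded both WT values (log2 difference 0.51, limma adjusted p = 0.338), but without WT replicate 2 the difference was 0.25. Zbp1 had 5.76 and 5.27 in the WT lists and 8.14 and 6.22 in the K43M lists, again without overlap (0.37 ± 0.16, limma adjusted p = 0.405).

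Dhx58 was the gene called in the K43M lists alone. K43M replicate 1 had a promoter peak of 4.46 at 58 bp upstream of a start, and K43M replicate 2 one of 4.84 at 130 bp downstream of an internal start. These peaks did not overlap each other, so the promoter call rested on different sites in the K43M lines. An intronic region that reached the window of the internal start had a peak in both K43M lists, 5.83 and 4.84 at most, and in neither WT list. A further peak near the 3′ end had 6.56 in WT replicate 2 and 5.0 in K43M replicate 2.

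In the OAS family, which makes the second messenger of RNase L, Oas1a and Oas3 had no promoter peak and Oas2 had one in WT replicate 2 alone (6.09). Oas3 had an intronic region 1849 bp from its nearest start with 8.67, 9.41, 7.37 and 9.50, open in all lists with overlapping genotypes. The OAS-like genes were open in all lists, although with protein-coding transcripts alone Oasl2 kept its promoter call only in K43M replicate 2. Oasl1, which restrains Irf7 translation, had 7.94, 7.09, 6.53 and 5.94, and Oasl2 had 6.45, 7.39, 9.57 and 6.64. At Oasl1 both K43M values were below both WT values (-0.27 ± 0.15, limma adjusted p = 0.533), and at Oasl2 they overlapped.

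Eif2ak2 encodes PKR, the RNA-activated kinase that stops translation, and its promoter was among the most enriched with 10.7, 12, 12.4 and 10.6. The K43M and WT values overlapped (0.02 ± 0.15).

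The IFIT genes, which encode binders of viral RNA caps and ends, lie in a cluster on chromosome 19 and differed from each other. Ifit2 was open in all lists with 12.1, 10.7, 9.34 and 7.67, both K43M values below both WT values. The log2 difference was -0.42 ± 0.16 with an adjusted p of 0.332 (limma), and it stayed between -0.52 and -0.33 when any 1 list was left out and was -0.66 when the pileup of reads at the summit, scaled to the recovered depth, was used instead of fold enrichment. Ifit1 had a peak of 6.11 in WT unnumbered and 5.37 in K43M replicate 2, and Ifit3 a peak of 5.23 in K43M replicate 1 alone, so neither followed the genotype. An Ifit1 neighbour, Ifit1bl2, shares the promoter region of Ifit1. In this family the 2 genes with 2 separate exact cores were those with inconstant peaks, and Ifit2, which had no exact core in the window, was open throughout.

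Mx1 and Mx2 encode dynamin-like GTPases against RNA viruses. Mx1 had a promoter peak of 4.96 in WT unnumbered and 4.69 in WT replicate 2 and none in the K43M lists. Both values were in the lower part of their lists, whose medians were 6.94 and 6.71, and at a stricter threshold of 5 on the -log10 q scale the WT replicate 2 peak was lost. Mx2 was open in all lists with 6.82, 7.34, 6.08 and 5.0, and again both K43M values were below both WT values (-0.36 ± 0.15, limma adjusted p = 0.396). On the scaled pileup the difference was -1.04 with a limma adjusted p of 0.0587.

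The guanylate-binding proteins are interferon-induced GTPases that attack pathogen vacuoles, and all 4 genes examined were open in every list. At the promoter region nearest the start, Gbp2 had 5.31, 5.11, 3.87 and 5.87, Gbp3 (summit 363 to 396 bp away) had 10.9, 9.66, 8.87 and 10.3, Gbp4 had 6.06, 6.74, 7.59 and 7.54 and Gbp7 had 9.60, 10.3, 9.62 and 9.39. The genotypes overlapped in Gbp2, Gbp3 and Gbp7, and in Gbp4 both K43M values were higher (0.24 ± 0.15, limma adjusted p = 0.578). The Gbp4 region also overlapped promoter windows of Gbp8 and Gbp9. A second Gbp2 region, 1840 bp upstream, had 4.18 and 3.08 in the WT lists and 5.75 and 5.49 in the K43M lists. That was the largest difference among the 37 regions (0.65, 95% interval 0.24 to 1.06, limma adjusted p = 0.216), and without WT replicate 2 it was 0.42. On the scaled pileup it was 1.61 (limma adjusted p = 0.0565).

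In the ISG15 and ubiquitin group, Isg15 itself had no peak while the 8 genes for its enzymes, the TRIM ligases and the ADP-ribosyltransferases were open in all lists. Trim21, a ubiquitin ligase that binds antibody-coated virus, was the most enriched promoter of the 41 genes with 14.6, 13.8, 17.9 and 16.1. Both K43M values were above both WT values (0.26 ± 0.15, limma adjusted p = 0.525), and the difference was 0.11 on the scaled pileup. Usp18, the protease that removes ISG15, followed with 14.1, 12.2, 12.5 and 10.8, which overlapped.

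Trim25, a ligase that acts on RIG-I, had 10.2, 9.57, 12.3 and 10.0, and Trim30a had 8.63, 9.66, 9.14 and 10.6, both with overlapping genotypes. A further Trim30a region 18678 bp from the nearest GENCODE start had 11.1, 10.6, 12.3 and 10.2. RefSeq places a Trim30a start inside this region, with an ISRE core 2 bases downstream of it and 396.5 bp from the summit. Herc6, the mouse ISG15 ligase, had nearly equal promoter values of 8.13, 8.04, 8.13 and 7.87 (-0.01 ± 0.14). The stronger region that Dtx3l and Parp9 shared had 8.89, 8.91, 7.52 and 7.33, lower in both K43M lists (-0.26 ± 0.14, limma adjusted p = 0.532). Their other shared region had 5.88, 5.34, 6.68 and 5.11, with overlapping genotypes (0.06 ± 0.16). Parp14 had 4.24, 4.21, 4.95 and 6.29, higher in both K43M lists (0.40 ± 0.18, limma adjusted p = 0.425).

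Rsad2 and Cmpk2 are neighbours on chromosome 12 that are transcribed away from each other, with starts 12752 bp apart. Rsad2 encodes viperin, and Cmpk2 encodes a nucleotide kinase that supplies the substrate from which viperin makes its antiviral nucleotide. The Rsad2 promoter had 8.67 and 7.73 in the WT lists and 4.76 in K43M replicate 1, and no peak was called in K43M replicate 2. Cmpk2 showed the opposite order, with 8.56 and 9.23 in the WT lists and 11.8 and 11.3 in the K43M lists.

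For Cmpk2 the log2 difference was 0.38 ± 0.15 with an adjusted p of 0.343 (limma). For Rsad2 a difference could be fitted without K43M replicate 2 alone, the list that lacked the peak and had the lowest depth, and was then -0.83 with an adjusted p of 0.357 (limma). In the same list no promoter peak was called at Cd79b and Rag1, which had one in the other 3 lists, and the part of depth in the Rsad2 call was not tested. Neither difference passed the threshold, and the difference between the neighbours was not tested.

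Of the other effectors, Samhd1, a hydrolase of deoxynucleotides, had 8.16, 7.0, 6.47 and 7.14 at its CpG-rich start, Isg20, an exonuclease, had 6.31, 6.95, 6.86 and 7.34, and Bst2, the tetherin that holds budding virus, had 9.55, 8.53, 10.0 and 9.12. The genotypes overlapped in all 3 genes. Xaf1 had 5.64, 7.03, 6.97 and 6.13 and Ifi35 had 7.53, 6.59, 6.38 and 8.04, which overlapped too. Rtp4 had a promoter peak of 4.69 in WT replicate 2 and 5.08 in K43M replicate 2 alone, the same 2 lists as Ddx58.

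Antigen processing genes were open in all lists. Tap1, a subunit of the peptide transporter, and Psmb9, a catalytic subunit of the immunoproteasome, start head to head and shared a region with 12.7, 12, 11.9 and 12.1. The genotypes overlapped (-0.03 ± 0.15). Psmb8, another immunoproteasome subunit, had 8.84, 6.95, 8.22 and 7.72, with overlapping genotypes.

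Both WT lists and neither K43M list had a peak in 4 of the 64 regions (6.25%, against 4.51% of all merged regions), and the reverse held for 2 (3.12%, against 7.64%). Besides the Mx1 promoter and the Dhx58 intron, both WT lists and neither K43M list had a peak in a Herc6 intron (9.97 and 12.4), in a Gbp2 intron (4.37 and 5.42) and 669 bp upstream of Usp18 (3.88 and 3.76). Both K43M lists and neither WT list had a peak in a Samhd1 intron near an internal start (3.82 and 3.80). The Herc6 region, 60947 bp from the outermost start and 31121 bp from the nearest, was the strong one, with WT values well above the median of their lists, while the Usp18 and Samhd1 regions were near the 5th percentile of their lists, which was 3.79 to 3.83. At a Samhd1 exon region, WT replicate 2 had 6.52 and the K43M lists 8.91 and 9.88, and WT unnumbered had no peak.

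**Figure D5:**
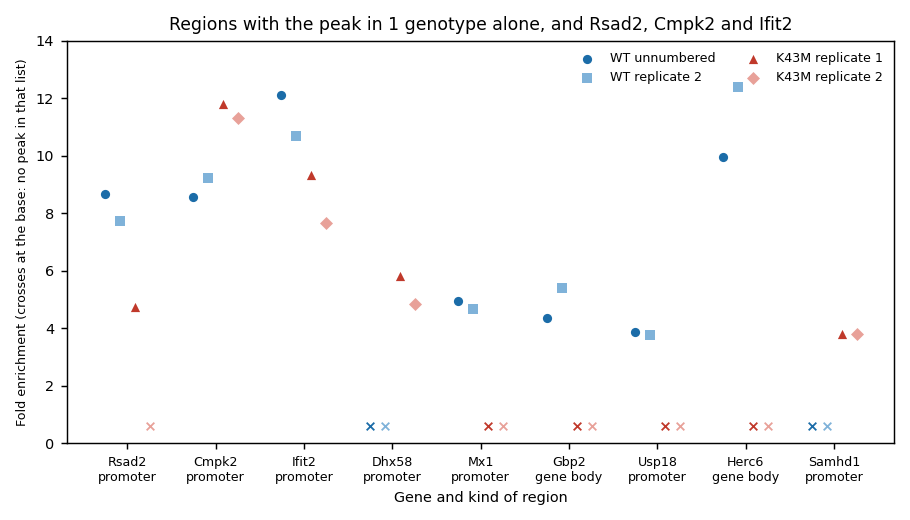
Fold enrichment in each list (symbols) at the regions of interferon-stimulated genes with peaks in both lists of 1 genotype and neither list of the other, and at the promoters of Rsad2, Cmpk2 and Ifit2; crosses at the base mark lists without a peak, which have no value. The Herc6 intron stands at 9.97 and 12.4 in the WT lists.

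The 200 bases around the summit are given for the Mx1 promoter and the Herc6 and Samhd1 introns, whose calls went with genotype. In the other regions of this kind, of Dhx58, Gbp2 and Usp18, the 200 bases around the summit held no exact ISRE core and are not shown. The sequences shown are read on the plus strand of GRCm38 with any exact GAAANNGAAA in capitals. Only the Samhd1 intron held one. The Mx1 sequence holds GAAACGAAA, whose half-sites stand closer together, so the search could not match it. An exact core lay elsewhere in the Mx1 promoter window.
Mx1, chr16:97462939-97463138: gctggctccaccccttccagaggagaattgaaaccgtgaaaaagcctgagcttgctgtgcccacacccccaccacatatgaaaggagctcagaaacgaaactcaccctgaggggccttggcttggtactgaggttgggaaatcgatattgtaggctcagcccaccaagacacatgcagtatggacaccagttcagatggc
Herc6, chr6:57641847-57642046: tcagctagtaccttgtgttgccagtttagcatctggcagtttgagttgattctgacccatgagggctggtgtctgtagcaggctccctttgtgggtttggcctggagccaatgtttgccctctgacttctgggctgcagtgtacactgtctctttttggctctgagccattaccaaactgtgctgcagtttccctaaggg
Samhd1, chr2:157129641-157129840: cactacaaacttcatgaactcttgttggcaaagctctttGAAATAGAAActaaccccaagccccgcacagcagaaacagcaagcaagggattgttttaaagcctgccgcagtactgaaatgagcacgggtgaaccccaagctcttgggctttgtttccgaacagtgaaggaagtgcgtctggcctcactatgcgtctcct

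In the rest of the pathway, promoters were open in every list at 21 of 27 pathway genes, comprising 4 of 4 receptors, 3 of 3 receptor kinases, 8 of 8 STAT and IRF factors and 6 of 8 adaptors and kinases of nucleic acid sensing. The 4 ligand genes examined, Ifnb1, Ifna2, Ifna4 and Ifng, had none in any list. The remaining sensing genes were Mb21d1, which encodes cGAS, and Tlr7. Mb21d1 had a promoter peak in the WT lists alone (3.99 and 4.89), a pattern of 0.515% of protein-coding genes. Its peak in WT unnumbered had a -log10 q of 3.76, under the stricter threshold of 5. Tlr7 had a promoter peak in WT unnumbered alone (4.25). With gene bodies added, both genes had a peak in every list. Of the factors that bind the response element, Stat2 had 14.5, 14, 15 and 15.4 and Irf9 had 12.1, 12.7, 14.2 and 9.84. Both K43M values were slightly higher than both WT values at Stat2, and the genotypes overlapped at Irf9. Of all regions tested, 41.7% likewise had no overlap between genotypes, in either direction, and none passed the adjusted threshold.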

How the data were processed

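Processed data were 4 ATAC-seq peak lists, 1 per cell line. According to the methods and the submitters' processing notes, the authors trimmed reads (Trimmomatic 0.36), mapped them to mm10 (BWA 0.7.15), dropped blacklisted, multiply mapped and low-quality reads (SAMtools 1.3.1), and called peaks per library (MACS2 2.1.0). Reads were shifted and extended so that the signal centres on cut sites. The deposited fold enrichment is the authors' ratio of summit signal to library background. The deposited -log10 p-value and -log10 q-value of each peak apply within 1 list and were used to filter peaks and to recover depth, which succeeded for 100% of peaks. Intervals and counts cover 1 library per line, so limma measures the spread between lines.

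Genes and windows came from GENCODE mouse release 21 on the same build. Peaks of the 4 lists that overlapped by 1 bp were merged into regions. The highest peak of a list stood for it. For regions with a peak in every list, log2 fold enrichment was centred on the list median and compared with limma 3.58.1 (R 4.3.3), Benjamini-Hochberg adjusted over all regions. Lines are not paired. Values of 3 marker and pathway genes are not reported here. Peak presence and motif counts were described without a test. The list without a sample label was assigned to WT from the series' design text, and 0 other columns were left unused for want of a sample. The genes, the gene lists and the markers were chosen with earlier results of these data known. By the naming rule every gene of the list is named, with values in each list where calls differed, for the 6 highest promoters and where the promoter held an ISRE core. The remaining values were chosen after they were seen. Alternatives changed the window, overlap, threshold, number of peaks, transcripts, normalization, variance model, motif window and lists included. The code was tested on simulated data. Python 3.11.15, numpy 2.4.6, pandas 2.3.3, scipy 1.17.1, matplotlib 3.10.9 and samtools 1.23.1 were used.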

Additional observations from a re-analysis of the deposited data

How the results depend on the processing

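Promoter calls were stable in number. The count open in all lists was 27 or 28 under the other windows, thresholds and transcripts and 28 to 29 when any 1 list was left out. The count open in no list was 5 or 6 throughout. When every list was cut to as many peaks as the smallest, 2 genes were open in WT alone, because Rsad2 joined Mx1, and with protein-coding transcripts alone 0 were open in K43M alone, because Dhx58 was lost in K43M replicate 2. Under that setting Oasl2 kept a promoter peak in K43M replicate 2 alone. When 1 list was left out, 1 to 2 genes were open in WT alone (2 without WT unnumbered and without K43M replicate 1) and 1 to 2 in K43M alone (2 without K43M replicate 2). With gene bodies, 30 to 32 genes were open in all lists and 4 to 5 in none.

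No region of an interferon-stimulated gene passed an adjusted p under 0.05 under any of the 10 alternatives to the limma test, where the lowest adjusted p was 0.0565, at Gbp2, with summit pileup scaled to the recovered depth. Over all regions that scale gave 24 higher and 11 lower in K43M, and an intensity trend gave 13 and 10. When 1 list was left out, the counts ran from 0 to 105 higher and from 0 to 40 lower: 104 and 19 without WT unnumbered, 105 and 40 without WT replicate 2, and none without either K43M list. The lone list of a genotype was then assumed to vary like the others. No log2 difference of Ifit2, Mx2, Gbp2, Cmpk2, Trim21 or the introns of Ifih1 and Ddx58 changed sign. The ISRE core was found in 27 genes with 1 mismatch (87.1%, against 36.1% of promoters) and in 34 in the whole promoter window (82.9%, against 45.1%). No paired analysis was possible because the genotypes share fewer than 2 replicate numbers. With 2 lines per genotype no exact test of a single value can pass 0.05, and a missing peak in the shallowest list, K43M replicate 2, cannot be told apart from low depth.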
